A study of Mus musculus with 7 samples.

Results

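Genes of the MHC class II pathway were followed across 7 populations of mouse cells, each measured on 1 single-colour Agilent array of 60-base probes. The 7 genes were H2-Ab1, H2-Aa, H2-Eb1, Cd74, Ciita, H2-DMa and H2-DMb1. They were found by the gene name in the scanner files and had 9 of the 55681 non-control probes. They were chosen by their signal and detection on these same arrays, H2-Ab1 for its low level in 1 mouse line, so the differences between lines below are a description without a test. Of them H2-Ab1, H2-Eb1, Cd74, H2-DMa and H2-DMb1 cleared the detection filter (a probe well above background on 3 arrays or more), and these 5 were among the 19761 genes tested for Sdc4.

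The series asked whether precursor cells of the dermis that can make muscle descend from satellite cells, which renew skeletal muscle. Each name joins the line of the mice with Sdc4, or syndecan-4, a proteoglycan that satellite cells carry on their surface. Labelled Sdc4+ were Myf5SOR+ cells (B6.129S4 mice with cre knocked into Myf5, a regulator of muscle identity), Cspg4- cells (B6,FVB mice with a Cspg4-cre transgene, Cspg4 being the NG2 proteoglycan of pericytes) and CD1 cells (the outbred Crl:CD1(ICR) stock, for which no cre is named). Labelled Sdc4- were B195AP+ cells (a B195AP-Cre line, with no promoter given in the labels), Cspg4- cells and CD1 cells. The last population was Cspg4+ cells of the Cspg4-cre line, with no Sdc4 label. Per the labels, 8 to 10 animals were used for each phenotype and 10 to 200 ng of RNA entered the labelling. The labels give no age, no reporter and no account of the sort. The Myf5SOR and B195AP lines each occur once, in opposite Sdc4 groups, so in their case line and Sdc4 status cannot be told apart.

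Class II molecules are pairs of an alpha and a beta chain that show peptides from engulfed material to CD4+ T cells. Dendritic cells, macrophages and B cells carry them at rest, and interferon gamma can induce them in other cells, fibroblasts and myogenic cells included. The invariant chain fills the groove until the H2-DM dimer exchanges its last fragment for a peptide, and the transactivator Ciita drives all these genes by binding factors that sit on a shared promoter module. In that module the X box is read by the RFX complex and the Y box by NF-Y.

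Letters of that module are shown first, for the genes whose promoter window held them. RefSeq promoter windows (GRCm38.p6, 250 bases before to 50 after each start) were held for 4 of the 7 genes, H2-DMa, H2-DMb1, H2-Aa and H2-Eb1. After these windows had been read, a pair of letter strings was searched on both strands, TNGNAAC followed on the same strand by GATTGG with 15 to 35 bases between them, so that they cannot overlap. The pair lay in 3 of the 4 genes and in H2-Ob, a subunit of the H2-DM inhibitor. Each is printed 5′ to 3′ on the strand of its gene, with both strings in capitals.
H2-DMb1, chr17:34153083-34153146, + strand: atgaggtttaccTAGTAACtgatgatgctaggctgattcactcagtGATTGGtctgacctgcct
H2-Ob, chr17:34238804-34238864, + strand: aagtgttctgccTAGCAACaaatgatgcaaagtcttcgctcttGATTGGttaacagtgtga
H2-Aa, chr17:34287855-34287918, - strand: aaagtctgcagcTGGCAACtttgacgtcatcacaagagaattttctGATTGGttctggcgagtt
H2-Eb1, chr17:34305762-34305824, + strand: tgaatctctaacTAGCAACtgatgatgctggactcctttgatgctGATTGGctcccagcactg
The strings were 27, 24, 27 and 26 bases apart in that order. Of all 32851 promoter windows, 35.2% held TNGNAAC, 16.1% held GATTGG and 0.292% (96 windows of 89 genes) held the pair. Both H2-DMa windows lacked the pair and one of them held GATTGG. The windows of H2-Oa, H2-DMb2 and H2-Eb2, class II genes not among those followed, also lacked the pair. That of H2-Eb2 held both strings, but not as the pair. A match is a description of letters, not of binding.

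Before the values, some facts on the arrays. Between 45.9% and 50.8% of spots were well above background on 6 arrays. The Cspg4+ array stood apart with 57.2%, and its median lay nearer to its 75th percentile (-3.04 in log2 units) than on the 6 others (-3.90 to -3.77). On the slide, row 1 took the Sdc4+ arrays and row 2 the others, so row and Sdc4 status cannot be told apart between them. The B195AP+ array had streaks of low signal in a region of 200 spot rows by 130 columns that was known from an earlier analysis. It held its spots for H2-Eb1, Cd74, Ciita and H2-DMa and for 1 probe each of H2-Ab1 and H2-DMb1. The Sdc4 transcript was present in both groups, at 3.79 (Myf5SOR+), 6.28 (Cspg4-) and 6.35 (CD1) where the label says Sdc4+. Where it says Sdc4- it was at 1.88 (B195AP+), 5.10 (Cspg4-) and 5.27 (CD1). In Cspg4- and CD1 cells that was lower than in the Sdc4+ cells of the same line, but above Myf5SOR+ Sdc4+ cells. The B195AP+ spot of Sdc4 also lay in the streaked region. Levels are log2 signals relative to each array's 75th percentile, and a difference of 1 is 2-fold. Levels of different probes cannot be compared with each other. In sorted bulk cells, fewer cells of a type and less RNA per cell cannot be told apart.

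H2-Ab1, the beta chain of the A molecule, was well above background on all 7 arrays and low in CD1 cells. Its brighter probe (chr17:34406296-34406355, mm9, from the files) was at 3.41 in Myf5SOR+ Sdc4+, 2.88 in Cspg4- Sdc4+ and -1.70 in CD1 Sdc4+ cells. In the Sdc4- group it was at 2.99 in B195AP+, 3.64 in Cspg4- and -1.04 in CD1 cells, and it was at 4.04 in Cspg4+ cells. Both CD1 arrays thus lay below the 5 others, with a gap of 3.92 between the lowest of those, Cspg4- Sdc4+, and CD1 Sdc4-. The signals before scaling were 74.5 and 103 on the CD1 Sdc4+ and Sdc4- arrays and 946 to 2915 on the others. Against Cspg4- cells of the same Sdc4 label, CD1 cells were lower by 23.8-fold in the Sdc4+ and 25.8-fold in the Sdc4- fraction. The mean log2 difference, -4.63 ± 0.08 (SD over the 2 fractions), ranked 14th from the lowest of 19756 genes, or within the lowest 0.0709%.

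A second probe gave the same picture. It covers chr17:34406305-34406363 and its spot on the B195AP+ array lay outside the streaked region. H2-Ab1 by this probe was at 3.25, 2.72 and -2.10 in Myf5SOR+, Cspg4- and CD1 Sdc4+ cells, at 2.63, 3.45 and -1.32 in B195AP+, Cspg4- and CD1 Sdc4- cells, and at 3.83 in Cspg4+ cells. CD1 cells again lay below the others, by a mean of 27.7-fold against Cspg4- cells. These probes are not independent measures, since they share 51 bases. Within those they differ at T51C (probe 1's base, the position in probe 1 from its 5′ end, probe 2's base). The stretch around that base is shown, with it in capitals.
H2-Ab1 probe 1, bases 31 to 60: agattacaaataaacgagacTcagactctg
H2-Ab1 probe 2, bases 22 to 51: agattacaaataaacgagacCcagactctg
Both probes with either base were low in CD1. A lower transcript level and a weaker match of both probes to the alleles of the CD1 line cannot be told apart here, and which exon the probes lie in was not analysed here.

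**Figure D1:**
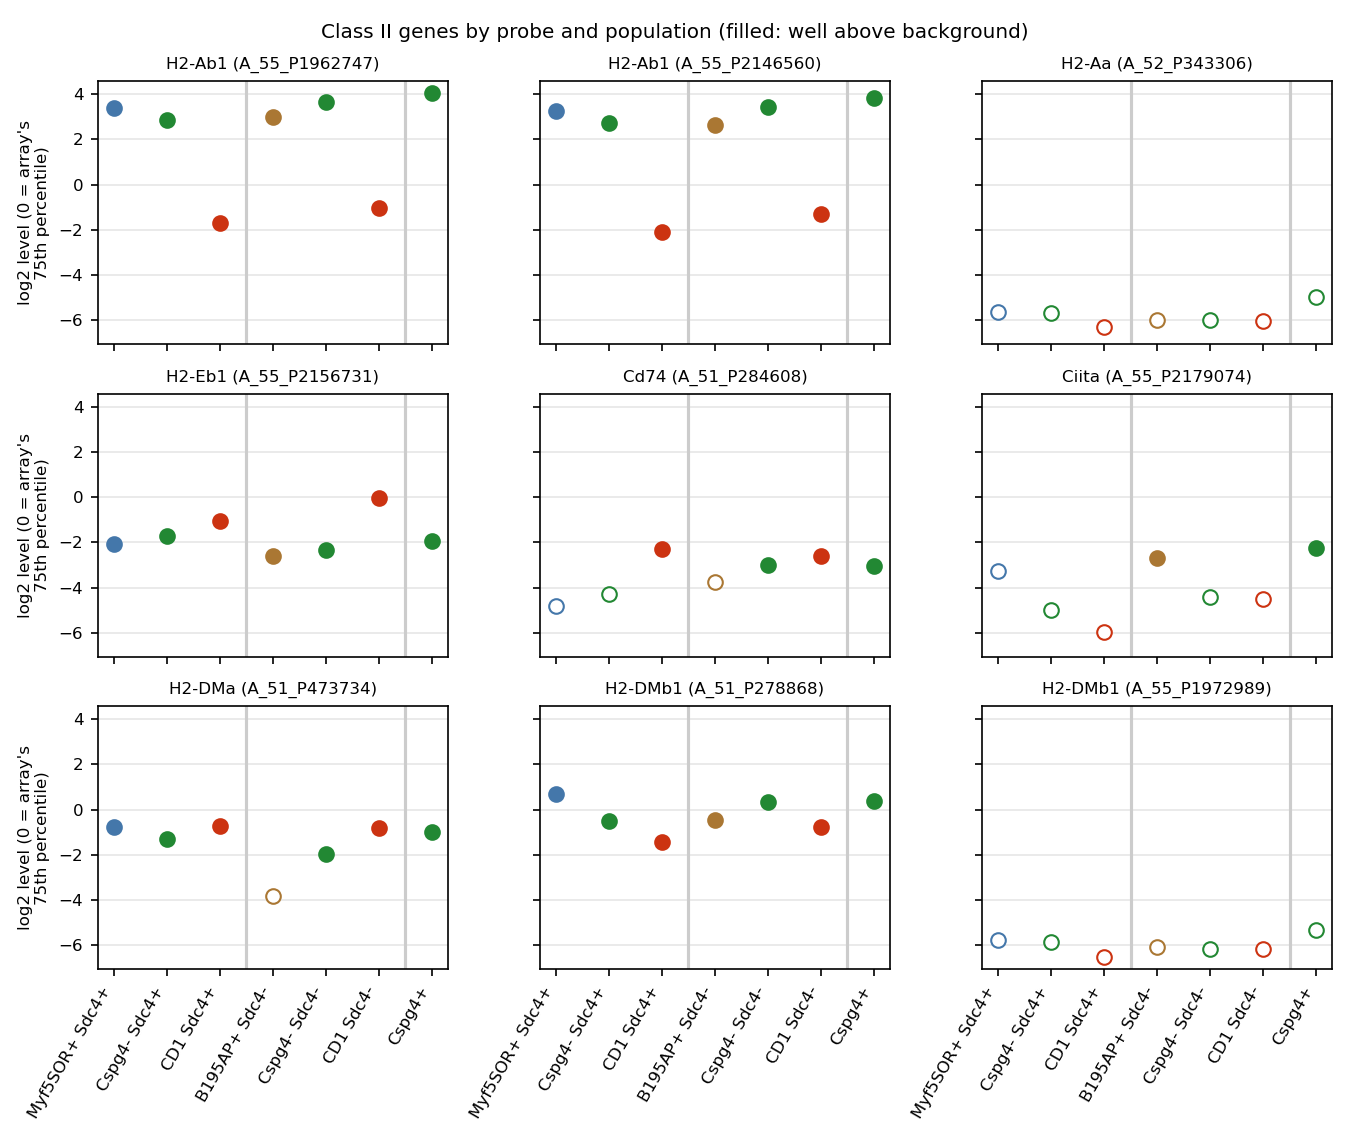
Log2 level of each of the 9 probes (vertical axis, relative to the array's 75th percentile) in the 7 populations, coloured by line (CD1 red, Cspg4 green, Myf5SOR blue, B195AP brown). Filled points were well above background and open points were not. H2-Ab1 was low on both CD1 arrays by both probes, while H2-Eb1 and Cd74 were highest there, and H2-Aa was open on all arrays.

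H2-Aa, the alpha chain that pairs with H2-Ab1, was not well above background on any of the 7 arrays. Its probe (chr17:34421285-34421344) gave signals of 2.58, 2.53 and 3.07 in Myf5SOR+, Cspg4- and CD1 Sdc4+ cells, of 2.71, 2.81 and 3.28 in B195AP+, Cspg4- and CD1 Sdc4- cells, and of 5.67 in Cspg4+ cells. No fold is given, since each value is only a bound. The A molecule's beta chain probe was bright in 5 populations in which its partner's probe was at background, and whether that reflects the RNA or this one alpha chain probe was not tested.

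H2-Eb1, the beta chain of the E molecule, went the other way from H2-Ab1. Its probe (chr17:34453075-34453134) was above background on all 7 arrays, at -2.09, -1.73 and -1.05 in Myf5SOR+, Cspg4- and CD1 Sdc4+ cells. It was at -2.58, -2.36 and -0.04 in B195AP+, Cspg4- and CD1 Sdc4- cells and at -1.94 in Cspg4+ cells. Both CD1 arrays were above the 5 others, which lay between -2.58 and -1.73. CD1 cells were higher than Cspg4- cells by 1.60-fold in the Sdc4+ and 4.97-fold in the Sdc4- fraction, a mean log2 difference of 1.50 ± 1.15 (SD over the 2 fractions), so that its size was not the same in both. With normexp, another background correction, the mean difference was 0.65. The alpha chain of the E molecule, listed as H2-Ea-ps, was at background on all 7 arrays.

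Cd74, the invariant chain, was also highest in CD1 cells but close to background. It was above background on 4 arrays, CD1 Sdc4+ at -2.31, CD1 Sdc4- at -2.59, Cspg4- Sdc4- at -3.01 and Cspg4+ at -3.06 (chr18:60972075-60972132). Myf5SOR+ Sdc4+ at -4.82, Cspg4- Sdc4+ at -4.29 and B195AP+ at -3.77 were not well above background. In the Sdc4+ fraction the CD1 cells were at least 2.45-fold higher than the Cspg4- cells, counting the dim array at the lowest value well above background there. In the Sdc4- fraction they were 1.34-fold higher. With normexp (offset 50) the mean difference over both fractions shrank from 1.20 to 0.08 log2 units.

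The H2-DM genes, which exchange peptides, went opposite ways between lines. H2-DMa, the alpha chain of the peptide exchanger, was at -0.75, -1.30 and -0.72 in Myf5SOR+, Cspg4- and CD1 Sdc4+ cells and at -1.95 and -0.81 in Cspg4- and CD1 Sdc4- cells. It was at -1.01 in Cspg4+ cells, and at -3.82 and not above background on the B195AP+ array, where its spot lay in the streaked region. Its probe spans chr17:34274300-34274863, which is longer than the probe. CD1 lay above Cspg4- cells by 1.50-fold (Sdc4+) and 2.20-fold (Sdc4-), and the CD1 values overlapped those of Myf5SOR+ cells. The mean difference from Cspg4- cells was 0.86, and 0.35 with normexp.

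H2-DMb1, the beta chain, was lower in CD1 cells, like H2-Ab1 but far less so. Its probe at chr17:34297109-34297168 was at 0.68, -0.50 and -1.42 in Myf5SOR+, Cspg4- and CD1 Sdc4+ cells. It was at -0.46, 0.35 and -0.75 in B195AP+, Cspg4- and CD1 Sdc4- cells and at 0.39 in Cspg4+ cells. The CD1 arrays were the lowest of the 7, with only 0.25 between CD1 Sdc4- and the next one up, Cspg4- Sdc4+. The mean difference from Cspg4- cells was -1.01 ± 0.13 (SD over the 2 fractions), and -0.72 with normexp. Its other probe (chr17:34290109-34290168) was at background on all arrays. That probe matched the RefSeq promoter window with 2 mismatches in 60 bases, 27 of them before and 33 after the listed start of the gene, and no level was read from it.

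Ciita, the transactivator, was seen on only 2 arrays, B195AP+ and Cspg4+. Its signals (chr16:10526568-10526627) were 13.3, 4.02 and 3.84 in Myf5SOR+, Cspg4- and CD1 Sdc4+ cells. They were 26.0, 8.31 and 9.27 in B195AP+, Cspg4- and CD1 Sdc4- cells, and 37.9 in Cspg4+ cells. In Cspg4+ cells it was at least 3.22-fold above Cspg4- Sdc4- and at least 2.60-fold above Cspg4- Sdc4+ cells. Those bounds hold only for levels relative to the 75th percentile. Relative to it, the array median was -3.043 for Cspg4+, -3.825 for Cspg4- Sdc4- and -3.778 for Cspg4- Sdc4+ cells. Scaling to medians would thus make both bounds smaller. The Cspg4+ array had the largest share of spots above background, and the part of that in the Ciita value was not tested. The probe is also unusual in sequence, with 39 A among 60 bases and 8 copies of AAAAC, more than on any other of the 55681 probes, which limits what its signal can be taken for. Part of it is shown with intact copies of AAAAC in capitals.
Ciita probe, bases 11 to 40: atgcAAAACAAAACAAAACgaaacAAAACa

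In numbers over both CD1 arrays, H2-Ab1 was the 1 gene of the 5 that was at least 2-fold lower than Cspg4- cells in both fractions, which held for 1.9% of 19756 genes (3.67% were 2-fold apart in either direction). No gene of the 5 was 2-fold higher in both fractions, against 1.77% of all genes. H2-Ab1 and H2-DMb1 lay below all 5 other arrays on both CD1 arrays (14.5% of 19761 genes did), and H2-Eb1 and Cd74 lay above them (5.56%), 4 of 5 in all beside 20.1% of all genes. These levels had chosen the genes, so nothing is read from those counts. The 4 orders held under each of the scalings and background corrections tried. The median difference between CD1 and Cspg4- cells over the 5 genes was 0.86, beside -0.04 over all genes, so that the median hides opposite directions. Each line has 1 array per fraction, so these differences rest on 2 arrays a side and carry no test.

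**Figure D2:**
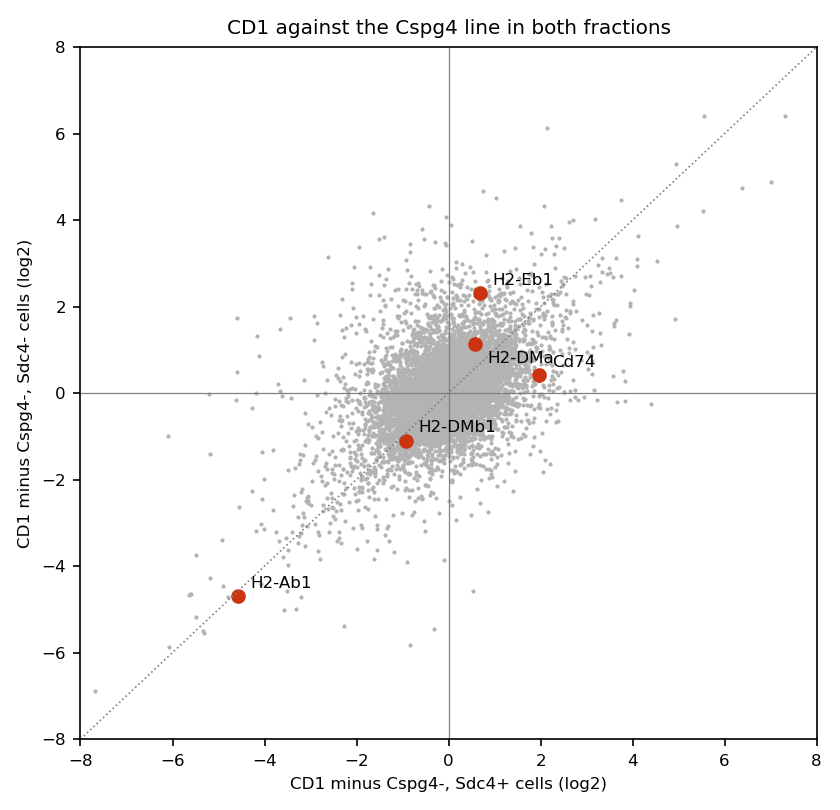
CD1 minus Cspg4- in log2 units for Sdc4+ cells (horizontal axis) and Sdc4- cells (vertical axis), 1 grey point per gene for 19756 genes, the class II genes in red and the line of equal differences dotted. H2-Ab1 lies at -4.58 and -4.69, near the end of the cloud, and H2-Eb1 (0.68 and 2.31) and Cd74 (1.98 and 0.42) lie on the other side of 0.

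Sdc4+ and Sdc4- cells were compared across lines, to ask which genes go with the Sdc4 gate, and no class II gene passed that test. By limma, 0 of the 5 genes passed an adjusted p of 0.05, as did 0% of all 19761 genes, and 0 of the 5 had an unadjusted p under 0.05 (9.17% of all genes did). None of the 5 had Sdc4+ and Sdc4- arrays without overlap, which 16.5% of all genes had. The median difference was -0.12 over the 5 genes and -0.03 over all genes.

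H2-Ab1 averaged 1.53 ± 2.81 in Sdc4+ and 1.86 ± 2.54 in Sdc4- cells (SD, n = 3 each). The difference was -0.33 with an SE of 1.718 (limma adjusted p = 0.9654). Its SD came with the CD1 array in each group. Within a line it was lower in Sdc4+ cells, by -0.66 in CD1 and -0.77 in Cspg4- cells, differences of single arrays that were small beside those between lines. The direction of the mean difference was not stable: it was 1.28 without CD1 Sdc4+, 0.23 without B195AP+ and 0.56 without Cspg4- Sdc4- cells.

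For the invariant chain Cd74 the groups averaged -3.81 ± 1.32 and -3.12 ± 0.60 (SD, n = 3 each), a difference of -0.69 (SE 0.6728, limma adjusted p = 0.7742), with dim arrays at their measured values. H2-DMa had the largest difference of the 5, 1.27 (SE 0.7174, limma adjusted p = 0.6402, n = 3 each), which was 0.46 when the B195AP+ spot in the streaked region was left out and the fit used the 2 other Sdc4- arrays. H2-DMb1 differed by -0.12 (SE 0.5634, limma adjusted p = 0.9614). It was 0.38 without CD1 Sdc4+ and 0.20 without Cspg4- Sdc4- cells, although Sdc4+ cells were lower within both lines (-0.67 in CD1, -0.85 in Cspg4-). H2-Eb1 differed by 0.04 (SE 0.6964, limma adjusted p = 0.9897), and by -0.25, -0.42 and -0.31 without CD1 Sdc4+, B195AP+ and Cspg4- Sdc4- cells. Sdc4+ cells had less H2-Eb1 in CD1 (-1.004) and more in the Cspg4 line (0.63), a contrast of single arrays that was not tested.

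**Figure D3:**
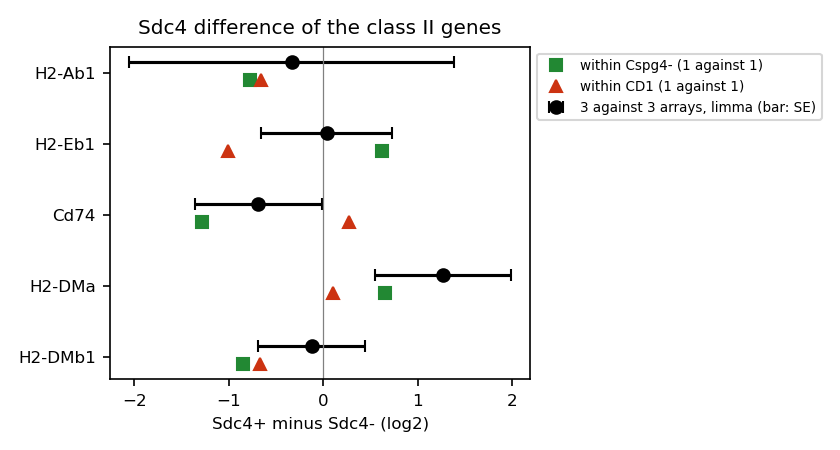
Sdc4+ minus Sdc4- in log2 units (horizontal axis) for the 5 class II genes tested. Black points are the limma difference of 3 against 3 arrays with its SE as a bar, and squares and triangles are the differences of single arrays within the Cspg4 and CD1 lines. The bar of H2-Ab1 is the widest (SE 1.718), and H2-Eb1 and Cd74 have their 2 lines on opposite sides of 0.

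Cspg4+ cells were set beside the Cspg4- cells of the same line, 1 array each. H2-Ab1 was 0.39 above Cspg4- Sdc4- and 1.16 above Cspg4- Sdc4+ cells, and H2-DMb1 0.04 and 0.89. H2-Eb1 differed by 0.42 and -0.21, and H2-DMa by 0.94 and 0.29. Cd74 differed by -0.05 from Cspg4- Sdc4- cells. It was at least 1.46-fold above Cspg4- Sdc4+ cells, where it was not well above background. None of the 5 tested genes was 2-fold from both Cspg4- arrays in 1 direction, against 2.69% of all genes. With arrays scaled to their medians, the differences from Cspg4- Sdc4- cells turned to -0.39 for H2-Ab1, -0.74 for H2-DMb1 and -0.36 for H2-Eb1. No direction is given for those genes. With the same scaling the difference was 0.16 for H2-DMa and -0.83 for Cd74.

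The rest of the class II machinery was partly at background. Of 13 further genes of class II structure and peptide processing, H2-DMb2, H2-Oa, H2-Ea-ps, H2-Eb2 and Ctss (cathepsin S, the protease that trims the invariant chain in antigen-presenting cells) were at background on all 7 arrays by every probe. Of the 7 of them that were tested, 0 passed limma. Sdc4 groups did not overlap for Ctsd and Ctsb, lysosomal proteases, which was so for 16.5% of all genes. Ctsd was higher in Sdc4+ cells by 0.71 (SE 0.29, limma adjusted p = 0.54, n = 3 each) and by 0.64 with its other probe. For Ctsb the difference was 0.52, with 2 Sdc4- arrays because the B195AP+ spot had been marked an outlier. Both proteases were above background in all populations. Ctsl and Marchf1, named after their values were seen, lay below the 5 other arrays on both CD1 arrays, as 14.5% of all genes did. Their mean differences from Cspg4- cells were -0.56 for Ctsl and -0.84 for Marchf1 by its brighter probe. No gene of this list was 2-fold higher or lower in both CD1 fractions.

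Among the factors that bind the class II promoter module, Rfxank, Nfya, Nfyb, Nfyc and Creb1 were above background on all 7 arrays. Rfxap was on 5 and Rfx5 on 1, each gene by its brightest or only probe. None of the 6 tested passed limma, and Nfya was the only one without overlap between Sdc4 groups (-0.23), as were 16.5% of all genes. No member of this list was 2-fold higher or lower in both CD1 fractions.

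In the interferon gamma arm, 0 of 9 genes passed limma and 4 had no overlap between Sdc4 groups, which 16.5% of all genes had. Irf1, a factor induced by interferon, was at 5.68, 5.68 and 5.78 in Myf5SOR+, Cspg4- and CD1 Sdc4+ cells and at 4.10, 3.68 and 4.95 in B195AP+, Cspg4- and CD1 Sdc4- cells, a difference of 1.47 (SE 0.33, limma adjusted p = 0.43, n = 3 each). Its second probe was at background on all arrays. Jak1 (0.73) and Socs1 (0.46) were higher and Ifngr1 (-0.30) lower in Sdc4+ cells.

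The markers of cells that carry class II at rest were then read, as a check on which cells the arrays hold. Ptprc (CD45, on all leukocytes) and Spi1 (a factor of myeloid and B cells) were at background on all 7 arrays. So were Ms4a1, Pax5 and Blk of the B cell genes, Mrc1, Lyz2, Ccr2, C1qa and C1qc of 15 macrophage genes, Xcr1, Clec9a, Ccr7 and Cd209a of 13 dendritic cell genes and Cd8a, Trac, Cd2 and Cd5 of 8 T cell genes. By contrast, all 8 fibroblast genes, among them Pdgfra, Col1a1 and Dcn, were above background on all arrays. Other genes of the same lists were above background on all 7 arrays by their brightest or only probe. They were Fcer1g, Coro1a, Cd52, Cd48 and Itgb2 of 10 leukocyte genes. The B cell list gave Cd79a and Cd22, and the T cell list Cd3e, Cd4 and Lck. The macrophage list gave Cd68, Csf1r, Cd14, Itgam and Mertk, and the dendritic cell list Zbtb46, Batf3 and Siglech. Cd48, Cd79a, Cd4 and Siglech each had another probe at background on all 7 arrays. Of Cd68, Csf1r and Itgam, not every probe was above background on all 7 arrays. The part of such cells in the class II values was not tested.

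Summed over the list on a linear scale (each gene relative to the array's 75th percentile), leukocyte genes came to 1.11 to 1.76 on the Sdc4+ arrays, 1.17 to 1.40 on the Sdc4- arrays and 1.78 on the Cspg4+ array. B cell genes came to 0.83 to 1.60, 0.82 to 1.12 and 0.94. Macrophage genes came to 41.9 to 59.7, 41.4 to 62.1 and 45.8. The macrophage sums were lowest on the 2 CD1 arrays, where H2-Ab1 was also lowest. They rest largely on 1 of 3 probes of Itgam, which disagree, and the part of macrophages in the H2-Ab1 values was not tested. The dendritic cell sum, 163 to 213 on the Sdc4+ and 16.1 to 210 on the Sdc4- arrays, rests on 1 probe of Siglech whose level was far from that of the gene's other probes.

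Single markers went both ways in CD1. Cd14, a receptor of monocytes also found on other cells, was at -1.26, -0.81 and 0.94 in Myf5SOR+, Cspg4- and CD1 Sdc4+ cells, at -0.09, -0.43 and 1.20 in B195AP+, Cspg4- and CD1 Sdc4- cells and at -0.64 in Cspg4+ cells. Aif1, a macrophage protein encoded near the class II genes, was at -4.61, -1.97 and -0.42 in Myf5SOR+, Cspg4- and CD1 Sdc4+ cells, at -6.00, -2.47 and -0.56 in B195AP+, Cspg4- and CD1 Sdc4- cells and at -1.51 in Cspg4+ cells. The Myf5SOR+ and B195AP+ values of Aif1 were not well above background. Cd14 and Aif1 were both highest in CD1, like H2-Eb1 and Cd74 and unlike H2-Ab1, and their part in those values was not tested. They were chosen after their values were seen. Of 15 macrophage genes 7 were tested. Cd14 and Aif1 were the 2 of those 7 that were 2-fold higher in CD1 in both fractions (1.77% of all genes were). For the other tested genes, the mean log2 differences of CD1 from Cspg4- cells were -0.76 (Itgam), -0.16 (C1qb), -0.0065 (Mertk), 0.10 (Cd68) and 0.34 (Csf1r). By its brightest probe, Itgam was lower on both CD1 arrays than on all others.

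Other list genes had no overlap between Sdc4 groups, as 16.5% of all genes did. None of these list genes passed limma, and they are given as differences. They were Cd83 (3.42, limma adjusted p = 0.44, SE 0.78, n = 3 each) and Icosl (0.30) of the costimulation genes, Csf1r (0.72, but 0.15 by another probe) of macrophages, Cd53 (0.67) of leukocytes and Cd3e (-0.56) of T cells. Of tissue markers they were Pecam1 (-0.42) and Kdr (-0.40, but 0.44 by its other probe) of endothelium. Ivl (1.03, but 0.29 by its other probe) of keratinocytes and Col1a1 (-0.70) of fibroblasts were also among them. The B195AP+ spots of Icosl, Cd53, Cd3e, Ivl and Col1a1, and above those of Ctsb, Ctsd, Jak1, Ifngr1 and Aif1, lay in the streaked region. Cd83, a surface protein of activated dendritic cells that other cells also make, was at -1.19, -0.55 and -1.39 in Myf5SOR+, Cspg4- and CD1 Sdc4+ cells and at -4.28, -6.18 and -2.92 in B195AP+, Cspg4- and CD1 Sdc4- cells. Cd83 was above background on 4 arrays. Cd53 was above background on 3, Cspg4- Sdc4+, CD1 Sdc4+ and Cspg4+, so its difference rests largely on background values.

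On the Cspg4+ array, where the Ciita signal before scaling was highest, 5 list genes were above background that were at background on the other 6 arrays. Those were Cd207 (langerin, of Langerhans cells; -2.21), Epcam (-2.14), Fcgr1, Tyrobp and Cd3g, named after their values were seen. Of all 55681 probes, 7.51% were above background on that array alone, against 0.176% to 0.981% on each of the others, so that 5 among 126 list genes is not above the share of all probes.

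The class I pathway, which shows peptides from inside the cell and is carried by nearly all cells, was compared as the nearest relative. Of 14 class I genes 13 were above background on all 7 arrays by their brightest or only probe. For Sdc4, 0 of the 13 tested passed limma. Tap1, which pumps peptides into the endoplasmic reticulum, was the only one without overlap (-0.68), as were 16.5% of all genes. The heavy chain H2-K1 was at 5.31, 6.89 and 7.38 in Myf5SOR+, Cspg4- and CD1 Sdc4+ cells, at 5.47, 6.80 and 7.07 in B195AP+, Cspg4- and CD1 Sdc4- cells and at 6.89 in Cspg4+ cells. In CD1 cells, in which H2-Ab1 was lowest, H2-K1 was thus at its highest, and it was low in Myf5SOR+ and B195AP+ cells, in which H2-Ab1 was high.

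The same held for H2-D1, at 5.10 and 5.28 in Myf5SOR+ and B195AP+ cells and 6.71 to 7.05 in the other 5 populations. H2-K1 and H2-D1 are among 18 H2 genes, other than the class II genes followed here, that were above background on all 7 arrays. Of these 18, 12 lay lower in both Myf5SOR+ and B195AP+ than in the 5 others, which 4.39% of all tested genes did. H2-K1 and H2-D1 are counted in the 12. Among the 5 class II genes tested, 0 did so. Class I genes are close copies of each other, so probes can take up RNA of several and the 12 are not independent measures. How well the probes match the alleles of each line was not tested for these genes or for H2-Eb1. Over all 18, differences between CD1 and Cspg4- cells ran from -1.38 for H2-Q5 to 0.78 for H2-Bl, with a median of 0.12 and 13 of 18 above 0. H2-Q5 was the 1 gene of the 18 at least 2-fold lower in CD1 in both fractions.

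**Figure D4:**
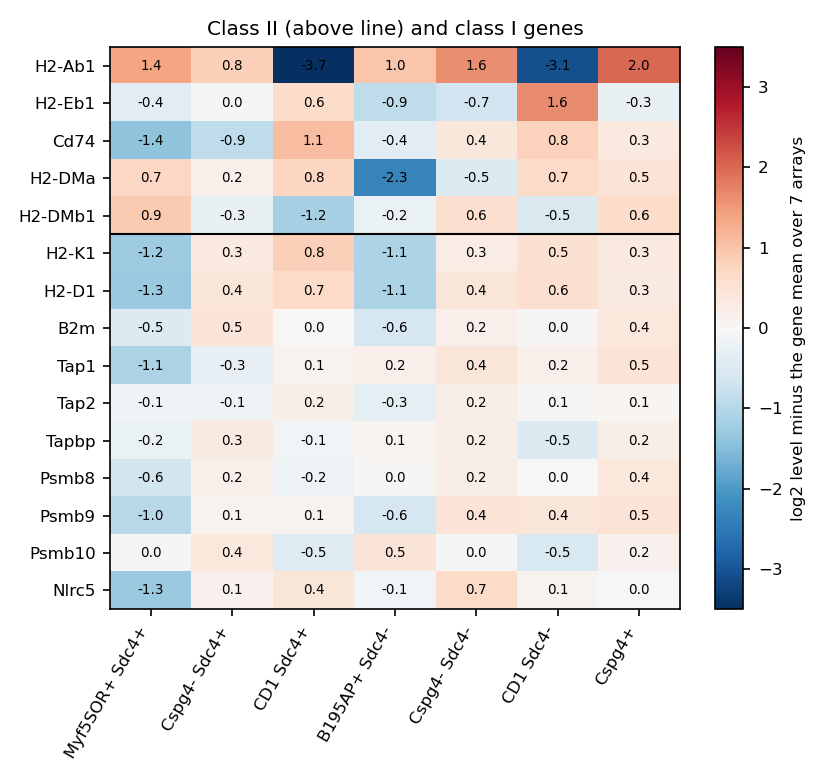
Level of the 5 class II genes tested (above the line) and of 10 class I genes (below it) in the 7 populations, as log2 level minus the gene's mean over the 7 arrays. H2-Ab1 is low in the 2 CD1 columns, while H2-K1 and H2-D1 are low in the Myf5SOR+ and B195AP+ columns. The B195AP+ value of H2-DMa lies in the streaked region.

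The genes most like the mean centred profile of the 5 class II genes were sought among 3857 genes with an SD of at least 0.5 over the 7 arrays. The 5 do not share 1 profile. H2-Ab1 had a Pearson r of -0.84 with H2-Eb1, -0.64 with Cd74 and -0.37 with H2-DMa, and 0.85 with H2-DMb1. Their mean mixes opposed patterns, so a gene close to it need not follow any of the 5. The profile was 0.64 in Cspg4+ cells, 0.29 in Cspg4- Sdc4- and 0.24 in Myf5SOR+ Sdc4+ cells, and -0.48 in CD1 Sdc4+ and -0.57 in B195AP+ cells. Its low B195AP+ value includes the H2-DMa spot of the streaked region. Closest by Pearson r over 7 arrays were Ahsg and Fetub (0.98 each), both secreted proteins of the fetuin family, then Dio3os (0.97), Morn1 and Zfp85 (0.96 each), and 2310005E17Rik, Gstt1 and Tff3 (0.95 each). Farthest were Prl3d1 (-0.97), Ccnf and Pitpnm2 (-0.93 each) and Itga4 (-0.92). With 7 arrays and 3857 genes, such values describe these arrays and carry no test. The differences of the 8 closest genes between CD1 and Cspg4- cells ran from -1.84 to -0.26, all smaller in size than that of H2-Ab1.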

How the data were processed

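RNA of 7 cell populations was read on 1 slide of Agilent mouse arrays in 1 channel. Per the file headers, the deposited intensity of each spot came from Agilent Feature Extraction 11.5.1.1, and probe positions are in mm9. It was background subtracted and spatially detrended on each array and not scaled between arrays. The deposited series table holds log2 values with equal column medians (5.15 to 5.17). Lumi is named in the submitters' processing notes, and how the table was centred is unknown, so it served only as an alternative.

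Control and outlier spots were left out. Levels are log2 intensity minus that array's 75th percentile. Probes well above background on at least 3 arrays were kept, and each gene was represented by the kept probe with the highest mean. Genes without such a probe were not tested. Of the 55681 probes, 27650 matched the reference gene table by accession. The 3 group means were fitted over 7 arrays in limma 3.58.1 (R 4.3.3) with Benjamini-Hochberg adjustment. The lone Cspg4+ array adds no residual. The arrays of a group come from different lines, and the p-values rest on that spread. The labels share only replicate number 1, so no pairing by number was made. The number of arrays limits the precision. Spots of probes repeated at least 8 times had a median SD (log2) of 0.0614 to 0.0815, rising to 0.146 for B195AP+.

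The genes and lists were chosen with earlier results of these data known. The text names every probe of the 7 genes. It also names list genes that pass or have no overlap between Sdc4 groups (at most 4 a list), and the 8 genes most like and 4 least like the mean profile. Exceptions are said in place. Some list genes are not reported here.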

Additional observations from a re-analysis of the deposited data

Results flagged for a closer look

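H2-Eb1, the beta chain of the E molecule, was lower in Sdc4+ than in Sdc4- cells of CD1 (a log2 difference of -1.004) and higher in Sdc4+ than in Sdc4- cells of the Cspg4 line (0.63). Cd74, the invariant chain, was higher in Sdc4+ cells of CD1 (0.27) and lower in those of the Cspg4 line (-1.28), where the Sdc4+ array was not well above background. The opposite directions in the 2 lines brought both genes here. Each value is the difference of 1 array from 1 array, and the differences between the lines were not tested.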

How the results depend on the processing

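Scaling by quantiles or medians, normexp, the deposited table, the detection filters, the mean of probes, the streaked region left out, each of the 6 Sdc4+ and Sdc4- arrays left out, the line as a block and array weights were tried. The count of genes passing for Sdc4 was 0 in all of them except with the line as a random block, where it was 3, none of them a class II gene. H2-Ab1 in CD1 against Cspg4- cells was -3.84 with normexp, -4.55 with median scaling and -3.95 in the deposited table, low in each. Sdc4 differences near 0 changed sign. H2-Ab1 went to 0.23 without the streaked region and 0.85 with array weights, and lay between -1.79 and 1.28 with 1 array left out. H2-Eb1 went to -0.0503 with normexp, -0.42 without the streaked region, -0.19 and -0.0691 with the line as a fixed and a random block and -0.36 with array weights, and between -0.42 and 0.85 with 1 array left out. Cd74 went to 0.0039 with normexp, and H2-DMb1 ran from -0.67 to 0.38 with 1 array left out. The cause was not tested. The groups share only replicate number 1, so arrays were paired by line alone, in the block fits, where CD1 and Cspg4- give 1 array to each Sdc4 group. Signal over background limits Cd74, Ciita and H2-Aa, and 1 array per population limits all comparisons of lines.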
